A study of Mus musculus with 288 samples.

Results

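The transcripts of 9 regulators of the cell cycle were followed across the day in 6 mouse tissues. They were the inhibitory kinase Wee1, the phosphatases Cdc25a and Cdc25b, the CDK inhibitors Cdkn1a, Cdkn1b and Cdkn1c, and the D-type cyclins Ccnd1, Ccnd2 and Ccnd3. The genes were chosen by name, as regulators that are often described as gated by the circadian clock, and are 9 of the 35904 genes in the expression tables. The mice were male wild type C57BL/6J animals, 8 weeks old, kept for 7 days either in room air (normoxia) or in intermittent hypoxia (IH), in which oxygen cycled between 21 and 8% during the light phase. Both groups were then moved to normoxic constant darkness for 2 days, so IH mice had also breathed room air for that time before tissues were taken. Lung, liver, kidney, muscle, heart and cerebellum were collected every 3 h at 8 labelled times from 1:30 to 22:30. Each tissue, condition and time had 3 mice, which gave 24 libraries for each of the 12 pairs of tissue and condition. The labels do not say from which time point the hours were counted, so peak times are given below as labelled hours, beside those of core clock genes.

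The cell cycle is driven by cyclin-dependent kinases (CDKs). D-type cyclins switch on CDK4 and CDK6 in G1, the CDKN1 proteins p21 (Cdkn1a), p27 (Cdkn1b) and p57 (Cdkn1c) bind and inhibit cyclin-CDK complexes, WEE1 adds an inhibitory phosphate to CDK1, and CDC25 phosphatases remove it. The circadian clock is a transcriptional loop in which CLOCK and BMAL1 (encoded by Arntl) bind E-box sequences and drive Per and Cry genes, the repressor Nr1d1 and the PAR bZIP factor Dbp. In mouse liver Wee1 is a textbook target of CLOCK and BMAL1, Cdkn1a is a known target of NR1D1 and the ROR receptors, and these links are the usual basis for calling the cell cycle clock-gated. Most cells of the 6 adult tissues do not divide, and transcripts of these genes were measured in bulk RNA, where fewer cells of a type and less RNA per cell cannot be told apart.

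In the GRCm38 build the 9 genes lie on 5 chromosomes. Wee1 (chr7:110122046-110143286, plus strand), Cdkn1c (chr7:143458339-143461050, minus strand) and Ccnd1 (chr7:144929931-144939925, minus strand) share chromosome 7. Cdkn1a (chr17:29090976-29100727) and Ccnd3 (chr17:47505051-47599691) are on the plus strand of chromosome 17. Cdkn1b (chr6:134920401-134925513, plus strand) and Ccnd2 (chr6:127125162-127152193, minus strand) are on chromosome 6, Cdc25b (chr2:131186949-131198497, plus strand) on chromosome 2 and Cdc25a (chr9:109875579-109893895, plus strand) on chromosome 9.

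The RefSeq promoter table for GRCm38.p6 held 7 promoters of 5 of these genes. Cdc25a, Cdc25b and Cdkn1b had 1 each, and Cdkn1a and Ccnd3 had 2 each. Wee1, Cdkn1c, Ccnd1 and Ccnd2 had no entry. The 250 bases before each start were searched on both strands for motifs of the clock loop. The E-box CACGTG, the E-prime box CACGTT and the D-box TTANNTAA were in none of the 7, against 6.02%, 3.85% and 5.43% of the 32851 promoters in the table. The ROR core AGGTCA was in 2 of the 7 and in 14% of all promoters, and the GC box GGGCGG in 6 of the 7 and in 32.7%. The sequences below are both Cdkn1a promoters, shown because this gene had the widest daily swing of the set, and the Cdc25a promoter and upstream Ccnd3 promoter, which are the 2 that held an ROR core. All are on the plus strand, 5′ to 3′, with the ROR core (read as TGACCT on this strand) and the GC box (GGGCGG, or CCGCCC from the other strand) in capitals.
Cdkn1a, upstream start, chr17:29090729-29090978: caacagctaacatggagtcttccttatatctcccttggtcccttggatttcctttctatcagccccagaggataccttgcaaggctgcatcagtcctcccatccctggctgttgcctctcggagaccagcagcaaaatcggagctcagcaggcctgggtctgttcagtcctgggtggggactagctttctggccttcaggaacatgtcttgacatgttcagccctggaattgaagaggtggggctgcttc
Cdkn1a, downstream start, chr17:29093519-29093768: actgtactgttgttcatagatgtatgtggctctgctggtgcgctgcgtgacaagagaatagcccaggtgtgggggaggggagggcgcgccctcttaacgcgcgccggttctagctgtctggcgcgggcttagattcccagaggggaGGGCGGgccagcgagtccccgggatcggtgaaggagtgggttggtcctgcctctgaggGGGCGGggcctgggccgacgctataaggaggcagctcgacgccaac
Cdc25a, chr9:109875329-109875578: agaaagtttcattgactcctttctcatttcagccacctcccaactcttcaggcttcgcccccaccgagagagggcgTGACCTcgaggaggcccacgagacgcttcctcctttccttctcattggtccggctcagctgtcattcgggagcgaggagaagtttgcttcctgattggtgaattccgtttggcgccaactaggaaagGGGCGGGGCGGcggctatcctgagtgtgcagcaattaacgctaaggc
Ccnd3, upstream start, chr17:47504801-47505050: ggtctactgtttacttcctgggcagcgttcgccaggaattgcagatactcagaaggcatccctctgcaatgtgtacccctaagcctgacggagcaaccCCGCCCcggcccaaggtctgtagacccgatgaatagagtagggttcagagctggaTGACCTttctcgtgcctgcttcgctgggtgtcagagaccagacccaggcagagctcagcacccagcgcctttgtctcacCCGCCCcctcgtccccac
The upstream Cdkn1a promoter held none of the 5 motifs, and the downstream one held only GC boxes. The ROR core of Cdc25a lay 174 to 169 bases before the start and that of Ccnd3 97 to 92 bases before it. These letters describe the windows and are not evidence for or against binding by any factor, and response elements farther away or inside the genes were not examined.

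Expression was given as TPM, a transcript's share of a library after correction for transcript length, and the tables give no read counts or depth per library. The number of genes above 0 differed by condition, most in heart and lung. In lung it was 22694 ± 737 in normoxia and 25455 ± 1529 after IH, and in heart 25124 ± 1719 and 21447 ± 688 (mean ± SD, n = 24). The part of this difference in the comparisons of conditions was not tested. No member was at 0 in any library. In lung, kidney, muscle and heart the summed markers of the labelled tissue were higher than in any other tissue in 48 of 48 libraries, and in liver in 47. In cerebellum this held for 17 libraries with the full marker list and for 43 after Ttr and Pvalb were left out, a choice made after their values were seen. In all, 8 libraries correlated less well with the rest of their tissue and 15, in muscle, heart and cerebellum, were high in proliferation genes. Of the 8 muscle libraries among the latter, 7 were numbered replicate 3. Values without these libraries are given beside the results that they moved most.

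Wee1 and Cdkn1a accounted for most of the rhythmic pairs in the set. A transcript was called rhythmic where the combined exact JTK rank test and Lomb-Scargle test gave an adjusted p of at most 0.05 and a cosine of 24 h also fitted with p of at most 0.05. The 2 tests use the same values but were combined as if independent, so the adjusted p is too small. In simulated data 23.3 to 29.7% of the calls by this rule were false, and calls near the threshold are weak. That share depends on how many genes were made rhythmic and how strongly, so it is not the false share of the calls below. In normoxia 15 of the 54 gene and tissue pairs were rhythmic, and 9 of these 15 were Wee1 or Cdkn1a. By tissue, the count was 3 of 9 in lung, where 9.36% of all tested genes were rhythmic, 4 of 9 in liver (15.2% of all), 4 of 9 in kidney (16.2%), 2 of 9 in muscle (3.44%), 2 of 9 in heart (0.837%) and 0 of 9 in cerebellum (4.73%). After IH, 15 pairs were again rhythmic and 10 were Wee1 or Cdkn1a. The counts were 4 in lung (11.5% of all genes), 2 in liver (8.07%), 3 in kidney (3.59%), 3 in muscle (7.69%), 3 in heart (4.07%) and 0 in cerebellum (0.0421%). In cerebellum the limma cosine fit also called 0 members in either condition, and the unadjusted cosine p was under 0.05 for 3 members in normoxia (Cdc25a, Cdc25b and Ccnd2) and for 0 after IH. By this rule Wee1 was rhythmic in 5 of 6 tissues in both conditions and Cdkn1a in 4 in normoxia and 5 after IH. Cdc25b, Cdkn1c, Ccnd1 and Ccnd3 were rhythmic in 2 tissues each and Cdkn1b in 1, counting either condition, while Cdc25a and Ccnd2 were rhythmic in none. The limma cosine fit, however, called Cdc25a in kidney in both conditions (adjusted p = 0.026 in normoxia and 0.014 after IH). On scaled TPM Cdc25a also counted as rhythmic there in both conditions by the combined rule. Ccnd2 was called by the limma cosine fit in no tissue. The name clock-gated was thus not borne out for every member by the combined rule as applied here.

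**Figure D1:**
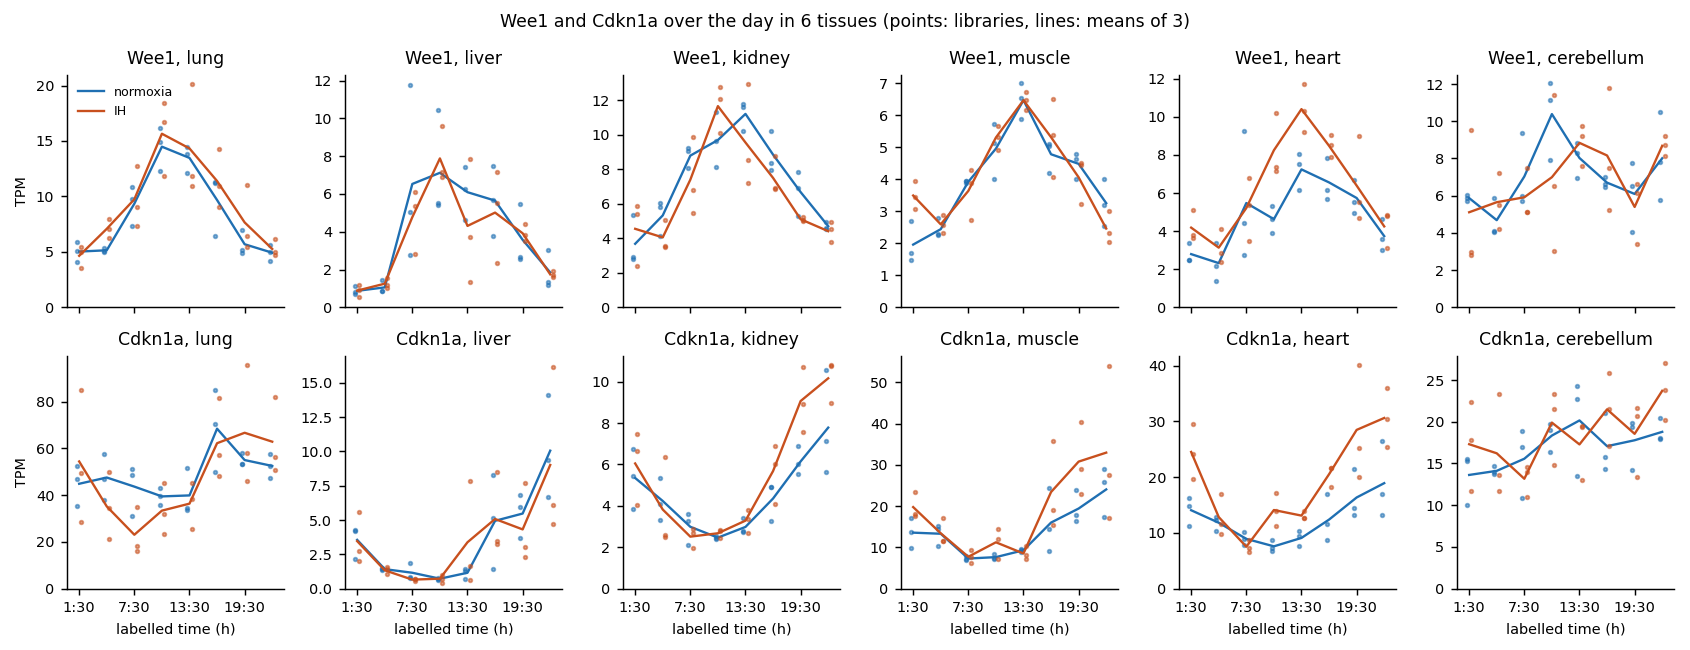
TPM of Wee1 (upper row) and Cdkn1a (lower row) against labelled time in the 6 tissues, with a point per library and lines through the means of 3 libraries for normoxia and IH. The highest Wee1 mean was at 10:30 or 13:30 in each tissue and condition. The highest Cdkn1a mean was at 22:30 in liver, kidney, muscle and heart, and at 16:30 in normoxic and 19:30 in IH lung.

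Wee1 was rhythmic in lung, liver, kidney, muscle and heart under both conditions. In normoxic liver its 3 libraries at 10:30 had 5.53, 5.40 and 10.4 TPM, and those at 1:30 had 0.69, 0.81 and 1.10 TPM, so that the 2 time points did not overlap and their means stood 8.18-fold apart. After IH the liver libraries at 10:30 had 6.90, 7.15 and 9.60 TPM against 0.55, 0.90 and 1.19 TPM at 1:30. The liver trough was thus at about 1 TPM and the peak at about 7 to 8 TPM in both conditions. In lung the highest mean was also at 10:30, with 14.95, 16.2 and 12.3 TPM in normoxia and 11.8, 16.7 and 18.4 TPM after IH. In normoxic kidney the libraries at 13:30 had 10.2, 11.6 and 11.8 TPM and those at 1:30 had 5.36, 2.90 and 2.78 TPM. In heart the highest mean was at 13:30, with 6.16, 8.03 and 7.53 TPM in normoxia and 10.3, 9.19 and 11.7 TPM after IH. In these tissues the highest time point was 2.63-fold to 8.94-fold above the lowest, with no overlap of their libraries in either condition. Both time points were picked from these same values, so the gap between them is a description and not a test. It was also seen for members not called rhythmic, such as Cdc25a in normoxic lung.

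The cosine fit put the Wee1 peak between 12.1 and 14.7 h in normoxia and between 12.1 and 14.1 h after IH. The latest, in normoxic heart, was at 15.3 h without the 2 libraries of low correlation. Its relative amplitude, the fitted amplitude as a percentage of the fitted mean, was highest in liver (77.5% in normoxia and 72.1% after IH) and lowest in heart in normoxia (44.1%) and in muscle after IH (41.5%). Adjusted p ran from 2.2e-08 in normoxic muscle to 0.00077 in normoxic heart. In cerebellum the libraries at 10:30 averaged 10.4 ± 2.16 TPM (SD, n = 3) in normoxia against 4.68 ± 1.05 at 4:30, and after IH the highest and lowest time points overlapped. The cerebellum had no rhythmic member, and of the 13 clock reference genes only 2 were rhythmic there in normoxia and 1 after IH, against 10 to 13 in the other tissues.

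Cdkn1a, the p21 gene, was rhythmic in liver, kidney, muscle and heart under both conditions and in lung after IH. In normoxic liver it had 6.66 to 14.1 TPM at 22:30 (mean 10.1 ± 3.78 TPM, SD, n = 3) and 0.66 to 0.79 TPM at 10:30 (mean 0.72 ± 0.07), a 14.0-fold ratio. After IH the liver libraries had 4.74 to 16.2 TPM at 22:30 and 0.57 to 0.72 TPM at 7:30, a 13.9-fold ratio that was 8.36-fold without the library at 22:30, replicate 3. In normoxia this was the widest daily swing of any member, and its relative amplitude in liver was 104.8% in normoxia and 90.3% after IH. In heart the libraries at 22:30 had 13.2 to 26.6 TPM in normoxia and 25.5 to 35.9 TPM after IH, and those at the trough 6.81 to 8.65 TPM at 10:30 in normoxia and 6.53 to 8.77 TPM at 7:30 after IH. In kidney the highest time point was 3.16-fold above the lowest in normoxia and 4.05-fold after IH, and in muscle 3.30-fold and 4.28-fold. Fitted peaks lay between 21.2 and 22.2 h in normoxia and between 20.4 and 21.3 h after IH.

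In lung Cdkn1a stood far higher than elsewhere, at 31.2, 49.2 and 84.97 TPM (lowest, median and highest) in normoxia and 16.0, 45.8 and 95.7 TPM after IH. It did not pass the rhythm test in normoxia (adjusted p = 0.089) and passed it after IH with a relative amplitude of 46.0% (adjusted p = 0.00057). On scaled TPM it counted as rhythmic in both conditions, with amplitudes of 9.90 in normoxia and 17.95 after IH (p = 0.14 for the difference by CircaCompare). After IH the lung libraries had 46.2 to 95.7 TPM at 19:30, the highest time point, and 16.0 to 34.9 TPM at 7:30, the lowest. The difference between the conditions was tested as an interaction with the cosine terms in limma, and it did not pass (p = 0.051, adjusted p = 1.0). A rhythm found in only one condition is therefore not shown to differ from the other.

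In the 5 tissues other than cerebellum, the ratio of Cdkn1a to Wee1 TPM moved more over the day than either transcript. In normoxic liver Cdkn1a was at 5.92 ± 1.92 times the Wee1 TPM at 22:30 and at 0.11 ± 0.04 times at 10:30 (SD, n = 3), a 53.4-fold swing. After IH the swing in liver was 58.1-fold, and 34.6-fold without the library at 22:30, replicate 3, whose ratio was 9.40. In the other tissues it was 3.92-fold in lung, 6.33-fold in kidney, 5.10-fold in muscle and 4.60-fold in heart in normoxia, and 5.62-fold, 10.1-fold, 10.9-fold and 6.09-fold after IH. The value of 10.9-fold in muscle fell to 6.33-fold without the library at 22:30, replicate 3, which was high in proliferation genes and had a ratio of 26.4. In cerebellum the swing was 1.73-fold in normoxia, below the 2.22-fold of Wee1 alone, and 2.16-fold after IH. The libraries of the highest and lowest time point did not overlap in any tissue. These time points were picked from the same values, so the gap is a description and not a test. TPM accounts for transcript length, so the ratio compares levels of the 2 transcripts, not of their proteins.

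In the 5 tissues other than cerebellum, the fitted peak of Wee1 came after those of Nr1d1 and Dbp, and that of Cdkn1a after Wee1. The Wee1 peak followed that of Dbp by 3.04 to 4.48 h in normoxia and by 2.90 to 4.44 h after IH. It followed Nr1d1 by 5.61 to 8.46 h in normoxia and by 5.54 to 8.61 h after IH. Its distance from Per2 was smaller and changed sign, from 1.08 h after Per2 in heart to 2.19 h before it in liver in normoxia. Cdkn1a followed Wee1 by 7.36 to 9.59 h in normoxia and by 7.03 to 9.25 h after IH, a range that includes the fit in normoxic lung, where Cdkn1a was not called rhythmic. The peak of Cdkn1a was near that of Arntl, the gene of BMAL1, between 0.46 h after it in kidney and 2.63 h before it in lung in normoxia and 0.57 to 1.85 h before it after IH. Each tissue came from the same design and the tissues may share mice, so these are descriptions of 5 fits and not 5 independent tests.

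**Figure D2:**
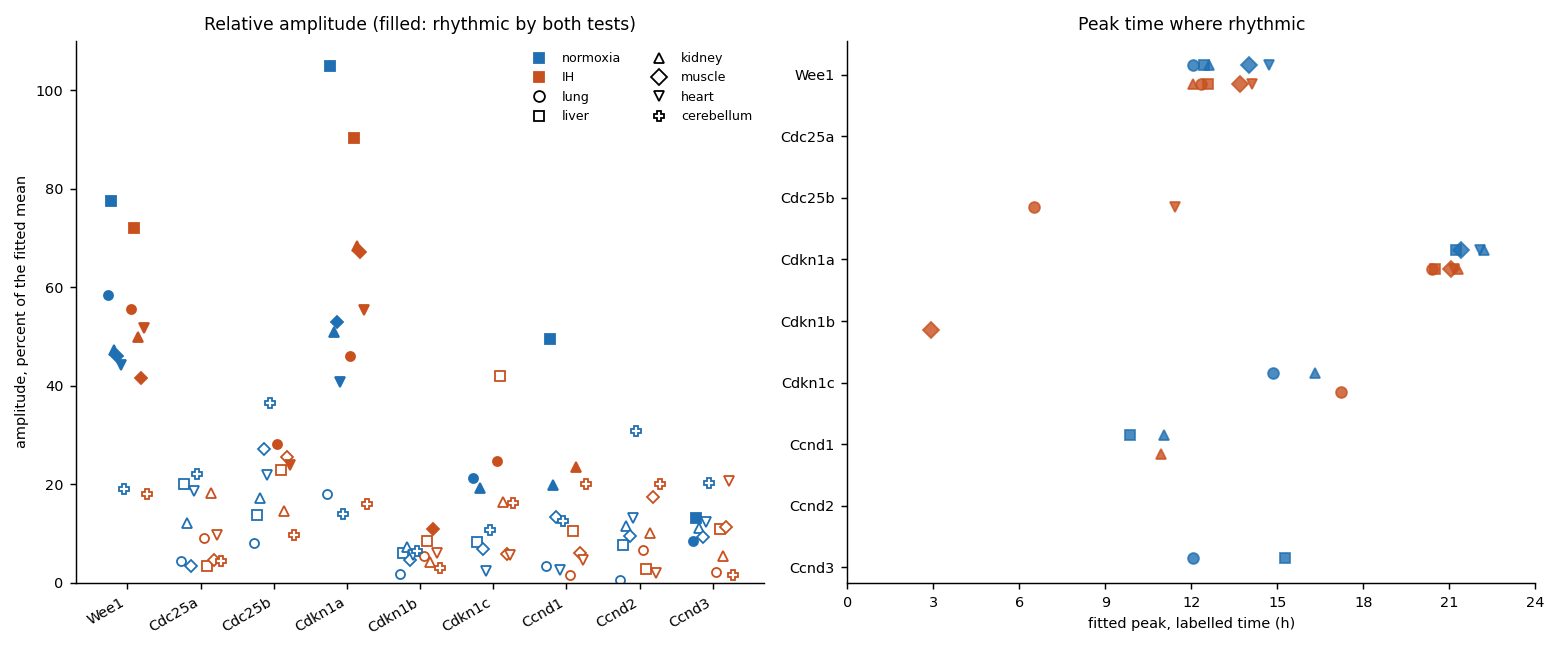
Left, relative amplitude (percent of the fitted mean) of the 9 genes in each tissue (marker shape) and condition (colour), filled where the transcript was rhythmic. Right, fitted peak time in labelled hours where it was rhythmic. Wee1 and Cdkn1a had amplitudes of 40.9% or more wherever they were rhythmic, and their peaks formed separate groups at 12.1 to 14.7 h and 20.4 to 22.2 h.

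The remaining rhythms were fewer and mostly shallower. Cdc25b, a CDC25 phosphatase of the G2 to M transition, was rhythmic by the combined rule only after IH. This was in lung (relative amplitude 28.2%, peak 6.52 h, adjusted p = 5.5e-05) and in heart (23.9%, peak 11.4 h, adjusted p = 0.034). In kidney the limma cosine fit called Cdc25b in both conditions (adjusted p = 0.015 in normoxia and 0.0086 after IH). In heart the 3 IH libraries at 10:30 had thymocyte sums of 185.5, 55.2 and 201.8 TPM (8 genes, described below), and that at 16:30, replicate 2, had 590 TPM and the highest Cdc25b of these libraries, 8.19 TPM. By the limma cosine fit the adjusted p of Cdc25b in IH heart was 0.047, and 0.025 without the 3 libraries high in proliferation genes. In lung after IH its libraries had 23.8 to 31.1 TPM at 7:30 and 14.99 to 16.6 TPM at 16:30, while in normoxia the means of all time points lay between 13.46 and 16.48 TPM. The limma interaction for Cdc25b in lung had the smallest p of the set (p = 4.3e-05) but an adjusted p of 0.67 over all genes. Cdkn1b, the p27 gene, was rhythmic by the combined rule only in muscle after IH, with a relative amplitude of 10.9% and a peak at 2.93 h. The limma cosine fit did not call Cdkn1b there (adjusted p = 0.12) but called it in normoxic kidney (adjusted p = 0.046).

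Cdkn1c, the p57 gene, was rhythmic in lung in both conditions and in normoxic kidney. In normoxic lung it had 94.1 to 116.7 TPM at 16:30 and 63.3 to 74.0 TPM at 4:30. Its relative amplitudes in the 3 cases lay between 19.2 and 24.8%, with peaks between 14.8 and 17.2 h. In IH lung the limma cosine fit did not call it (adjusted p = 0.0996). Ccnd1, the cyclin D1 gene, was rhythmic in normoxic liver (relative amplitude 49.4%, peak 9.85 h) and in kidney in both conditions (19.9% and 23.5%, peaks 11.05 and 10.96 h). In normoxic liver the Ccnd1 libraries at 7:30 had 6.04, 6.40 and 21.7 TPM and overlapped those of the lowest time point. Ccnd3, the cyclin D3 gene, was rhythmic in normoxic lung (8.60%) and liver (13.3%), the shallowest rhythms called in normoxia. When TPM were first scaled by the median of ratios, 24 rather than 15 pairs were rhythmic in normoxia. Leaving out a replicate left 9 to 13.

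No member was shown to change its amplitude or peak time with IH. Of the 11 pairs rhythmic in both conditions, 0 passed the CircaCompare test of amplitude, with 2 at an unadjusted p under 0.05, and 0 passed that of peak time, with 0 at an unadjusted p under 0.05. Across all genes rhythmic in both conditions, 1.93% in lung and 0% in the other tissues passed for amplitude, and 0.149% in lung, 1.12% in muscle and 0% elsewhere for peak time. The limma interaction passed for 0 of 53 pairs, with 3 at an unadjusted p under 0.05, and for 0% of all genes in each tissue. The largest difference relative to its error was Cdkn1a in heart, where the fitted amplitude was 5.06 TPM in normoxia and higher after IH (difference 5.44 ± 1.69 TPM, SE, 95% interval 2.02 to 8.86). Its p was 0.0026 by CircaCompare and its adjusted p 0.23 over all genes compared in heart. In kidney the Cdkn1a amplitude was 2.31 TPM in normoxia and 3.70 TPM after IH (p = 0.012, adjusted p = 0.92 by CircaCompare). For peak time the 95% intervals of the 11 differences reached from -3.20 to 4.91 h, so shifts of a few hours would not have been seen for every pair. On scaled TPM, Cdc25b in lung counted as rhythmic in both conditions and passed for amplitude (1.27 TPM in normoxia and 5.65 TPM after IH, adjusted p = 0.0094 by CircaCompare). In muscle the Cdkn1a amplitude difference of 5.09 TPM fell to 0.94 TPM without the libraries high in proliferation genes.

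Lung had the highest mean TPM in normoxia for 7 of the 9 members and liver the lowest for 7. The exceptions at the top were Cdc25a and Cdkn1b, highest in cerebellum, and those at the bottom were Wee1, lowest in muscle, and Ccnd3, lowest in cerebellum. Wee1 was the most even, with 2.10-fold between the highest and the lowest tissue, followed by Cdc25a with 3.20-fold and Ccnd3 with 5.76-fold. The ratio was 12.5-fold for Cdkn1b, 13.8-fold for Cdkn1a, 14.7-fold for Ccnd1, 17.5-fold for Ccnd2, 32.3-fold for Cdc25b and 34.3-fold for Cdkn1c.

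**Figure D3:**
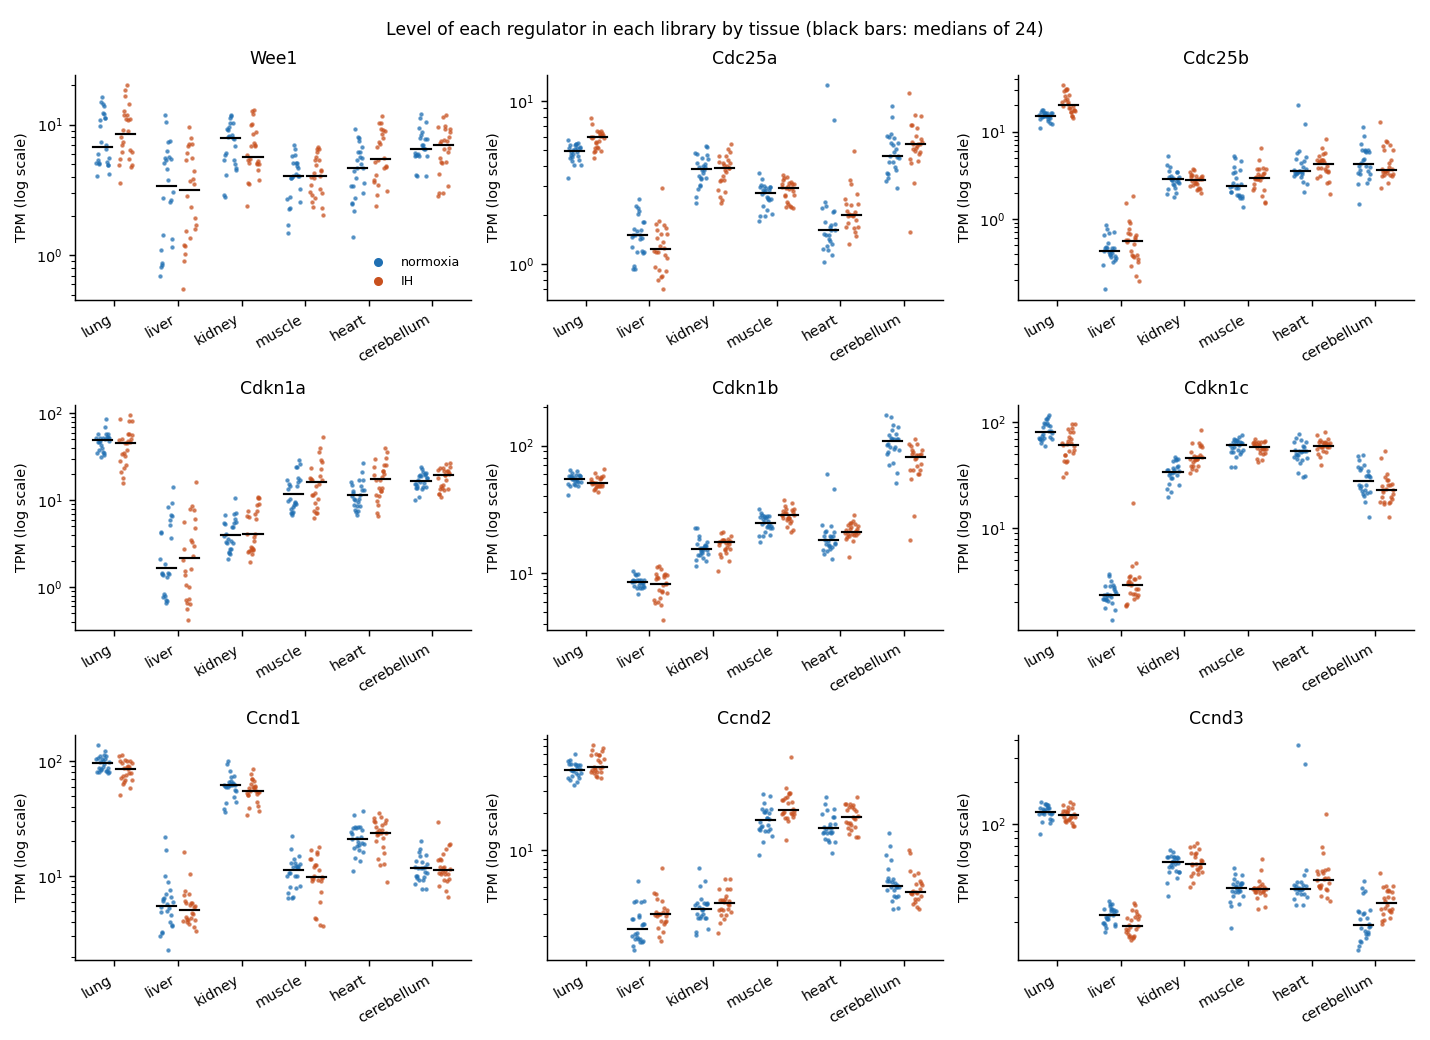
TPM of each of the 9 genes in every library by tissue and condition, on a log scale, with black bars at the medians of 24 libraries. Lung stood highest for 7 genes by mean TPM in normoxia and liver lowest for 7, and the spread between tissues was widest for Cdkn1c and Cdc25b.

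Among the inhibitory regulators, Cdkn1c averaged 84.1 ± 16.4 TPM in normoxic lung, 59.0 ± 9.72 in muscle, 52.2 ± 11.9 in heart, 34.0 ± 7.49 in kidney, 29.5 ± 9.54 in cerebellum and 2.45 ± 0.56 in liver (SD, n = 24 throughout). Cdkn1b averaged 107.5 ± 30.1 TPM in cerebellum, 54.5 ± 5.34 in lung, 24.9 ± 3.71 in muscle, 21.0 ± 10.3 in heart, 15.9 ± 2.84 in kidney and 8.61 ± 0.83 in liver. Cdkn1a averaged 48.9 ± 12.3 TPM in lung, 16.9 ± 3.56 in cerebellum, 13.8 ± 6.58 in muscle, 12.4 ± 4.74 in heart, 4.53 ± 2.01 in kidney and 3.56 ± 3.47 in liver. The most abundant of these CDKN1 genes thus differed by tissue: Cdkn1b in cerebellum and liver and Cdkn1c in lung, kidney, muscle and heart, when mean TPM are compared. Other CDK inhibitors were not ranked. Wee1 averaged 8.47 ± 3.95 TPM in lung, 7.37 ± 2.71 in kidney, 7.10 ± 2.12 in cerebellum, 4.81 ± 2.07 in heart, 4.09 ± 3.08 in liver and 4.04 ± 1.48 in muscle.

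Among the genes that promote progression, Cdc25b averaged 15.1 ± 1.68 TPM in normoxic lung and between 2.71 and 4.82 TPM in the other tissues apart from liver, where it had 0.47 ± 0.16 TPM. Cdc25a was low everywhere, from 1.55 ± 0.43 TPM in liver to 4.95 ± 1.49 TPM in cerebellum. Ccnd1 averaged 96.6 ± 15.3 TPM in lung and 62.3 ± 15.2 TPM in kidney, against 6.56 ± 4.39 TPM in liver. Ccnd2 averaged 45.1 ± 6.31 TPM in lung, 17.8 ± 4.69 TPM in muscle, 15.9 ± 4.16 in heart and 5.83 ± 2.41 or less in cerebellum, kidney and liver. Ccnd3 was the most abundant D cyclin in lung, liver, muscle, heart and cerebellum, and Ccnd1 was in kidney, where Ccnd3 averaged 52.0 ± 8.26 TPM.

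Each tissue was compared with the next in the order by a permutation test on log2(TPM + 0.5), two-sided, with 100000 resamples and adjustment over the 45 comparisons. The order was picked from the same normoxic libraries, and libraries were treated as independent although the tissues may share mice. The counts are therefore descriptions. In 31 of the 45 the tissues differed. Those that did not were lung and kidney, kidney and cerebellum, and liver and muscle for Wee1, cerebellum and lung, and heart and liver for Cdc25a, and cerebellum and heart, and kidney and muscle for Cdc25b. They were also muscle and heart for Cdkn1a and Ccnd2, muscle and heart, and kidney and cerebellum for Cdkn1c, cerebellum and muscle for Ccnd1, and heart and kidney, and liver and cerebellum for Ccnd3. These orders are orders of TPM, which is a share of each tissue's transcripts. With libraries scaled by the median of ratios over all tissues, 15 of the 45 neighbour differences took the other sign, among them lung against kidney for Wee1 and Ccnd1 and lung against muscle for Cdkn1c, so the place of lung at the top for those 3 genes depends on the scale. Lung minus the next tissue kept its sign for Cdc25b, Cdkn1a, Ccnd2 and Ccnd3.

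In heart 2 libraries set the spread of several members. The normoxic libraries at 7:30, replicate 3, and 19:30, replicate 3, had 368.5 and 271.9 TPM of Ccnd3, while the other 22 averaged 34.6 ± 4.78 TPM (SD). The same libraries had 12.6 and 7.60 TPM of Cdc25a against 1.63 TPM on average in the others, 20.0 and 12.3 TPM of Cdc25b against 3.74 TPM, and 59.6 and 45.6 TPM of Cdkn1b against 18.2 TPM. Cdkn1a lay within the range of the others. In these 2 libraries the sum of 8 thymocyte genes, a list added after the data were seen, was 1820 and 1261 TPM, and the sum of proliferation genes 524 and 321 TPM. Of the IH heart libraries, 3 that were high in proliferation genes had 61.9 to 118 TPM of Ccnd3. The part of these cells in the member values was not tested beyond leaving the libraries out.

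**Figure D4:**
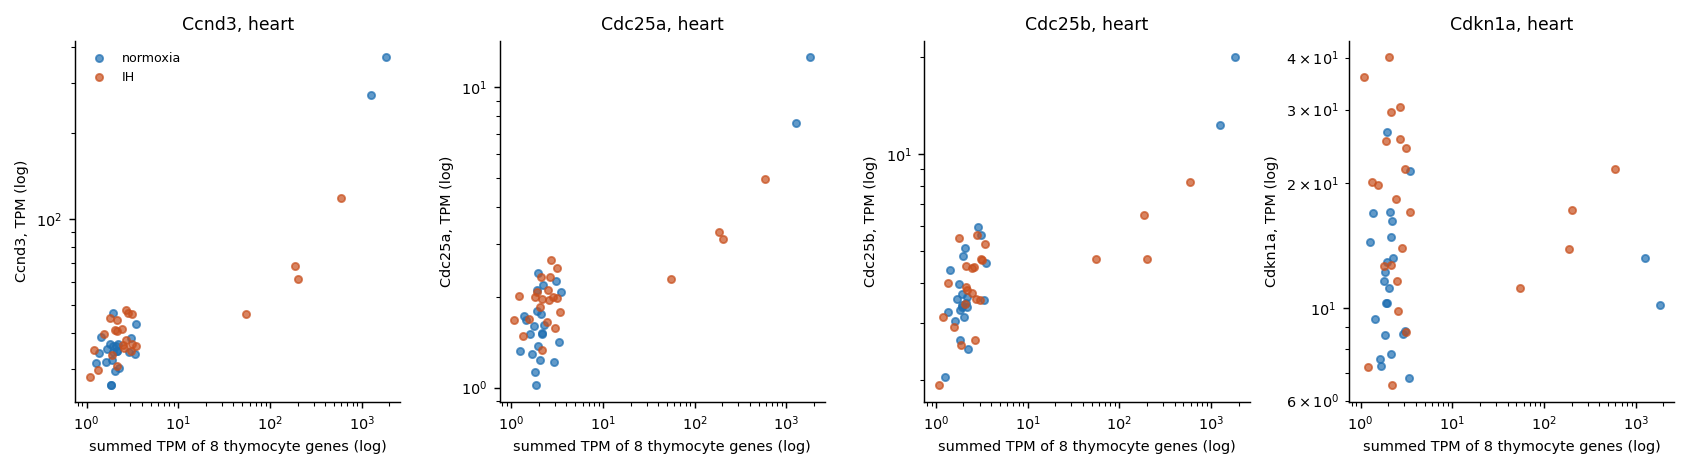
TPM of Ccnd3, Cdc25a, Cdc25b and Cdkn1a in heart libraries, 1 gene per panel, against the summed TPM of 8 thymocyte genes, both axes on a log scale, with a point per library coloured by condition. The 2 normoxic libraries with sums of 1820 and 1261 TPM also had the highest Ccnd3, at 368.5 and 271.9 TPM.

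IH changed the level of few members by 1.5-fold or more. Levels were compared in limma on log2(scaled TPM + 0.5) over the 24 libraries of each condition per tissue, for the 53 gene and tissue pairs with a mean of at least 1 TPM (Cdc25b in liver was below it). Only Cdkn1c in lung passed both the adjusted p of 0.05 and the 1.5-fold threshold. Both thresholds were passed by 13.48% of all genes in lung, 3.65% in liver, 0.783% in kidney, 0.374% in muscle, 2.95% in heart and 2.64% in cerebellum. By adjusted p alone 14 of the 53 pairs passed, 8 higher and 6 lower after IH. These were 6 of 9 in lung, where 70.4% of all genes passed, 2 of 8 in liver (24.2%), 2 of 9 in kidney (19.8%), 1 of 9 in muscle (10.4%), 1 of 9 in heart (45.2%) and 2 of 9 in cerebellum (15%). In lung 1 member was higher and 5 were lower, and of all genes 28.9% were higher and 41.5% lower. Elsewhere all called members were higher apart from Cdkn1b in cerebellum, and of all genes 10.9% were higher and 13.3% lower in liver, 8.25% and 11.5% in kidney, 5.48% and 4.89% in muscle, 28% and 17.3% in heart and 9.76% and 5.24% in cerebellum.

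**Figure D5:**
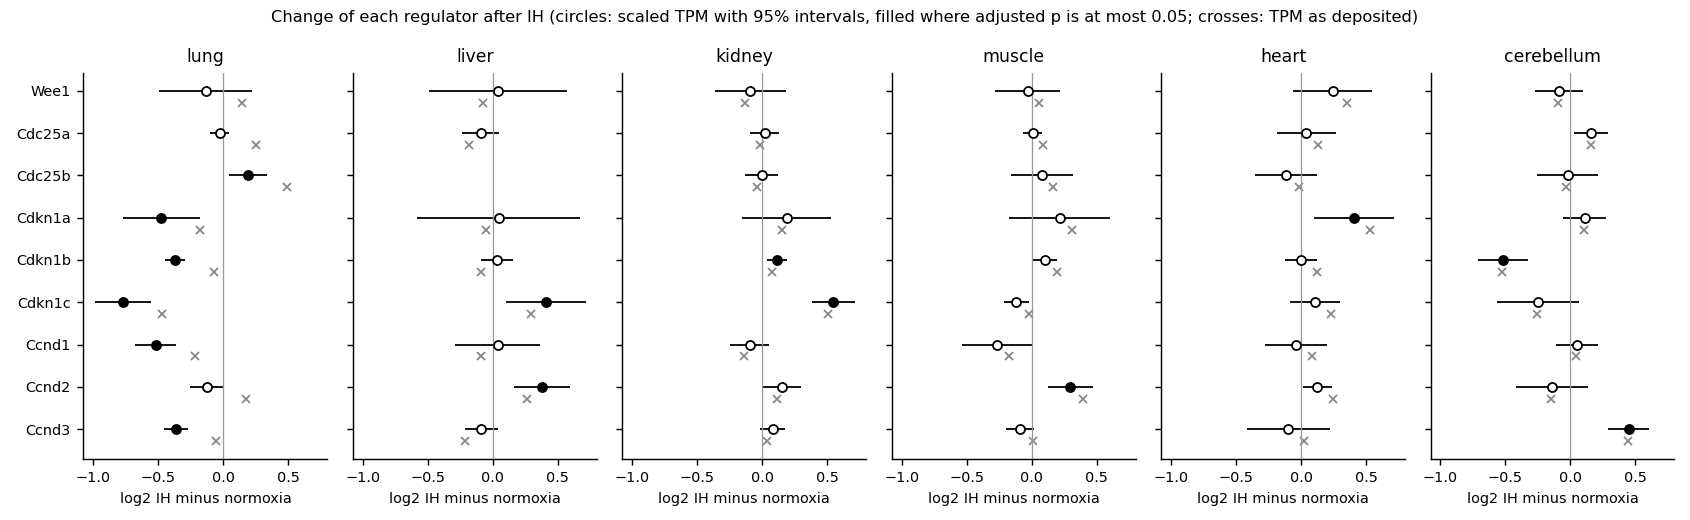
Log2 difference of each gene between IH and normoxia by tissue, with circles for scaled TPM and their 95% intervals (filled where the adjusted p was at most 0.05) and crosses for TPM as deposited. In lung the crosses sit to the right of the circles by about the shift of all genes, 0.28, and in the other tissues the 2 lie closer together.

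Cdkn1c in lung had 59.5 TPM at the lowest, 80.4 at the median and 116.7 at the highest in normoxia, and 30.6, 61.3 and 95.99 TPM after IH. The ranges overlapped, but the mean after IH was lower at 8 of 8 time points. The log2 difference was -0.77 ± 0.11 (SE, adjusted p = 4.8e-08 by limma), and it was -1.06 to -0.42 when the libraries of each replicate number were taken alone. With TPM as deposited it was -0.47, short of 1.5-fold. The lowest value, 30.6 TPM, came from the IH library at 1:30, replicate 2, which also correlated least with the other lung libraries, and without the low-correlation libraries the difference was -0.72.

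The scale mattered for the whole of the lung comparison. With TPM as deposited 65.7% of all lung genes passed the adjusted p, 55% higher and 10.7% lower, and 19.2% passed both thresholds. The median of all genes in lung was -0.08 with scaled TPM and 0.21 with TPM as deposited, a shift of 0.28 on the log2 scale, against shifts of -0.11 in liver, 0.11 in heart and less than 0.1 in size in the other tissues. The median of the 9 members in lung was -0.36. Ccnd1 fell by 0.52 and Ccnd3 by 0.36 on the log2 scale with scaled TPM (adjusted p = 1.7e-07 and 2.0e-09 by limma), and with TPM as deposited the differences were -0.22 (adjusted p = 0.009) and -0.06 (adjusted p = 0.28). Cdkn1b fell by 0.38 (adjusted p = 2.2e-11) and Cdkn1a by 0.48 (adjusted p = 0.0048), against -0.07 (adjusted p = 0.13) and -0.18 (adjusted p = 0.31) with TPM as deposited in limma. Cdc25b rose on both scales, by 0.19 with scaled TPM (adjusted p = 0.021 by limma) and by 0.49 with TPM as deposited, with a higher mean at 8 of 8 time points. Cdc25a and Ccnd2, which did not pass with scaled TPM, passed as higher with TPM as deposited (0.25 and 0.17, adjusted p = 3.0e-05 and 0.022 by limma). Lower Cdkn1c and Ccnd1 and higher Cdc25b were thus the lung differences that passed on both scales. For Cdc25b the adjusted p without one replicate reached 0.17 by limma, and without the IH library at 1:30, replicate 2, which had the highest Cdc25b of the lung libraries (34.4 TPM), the difference was 0.17 (adjusted p = 0.035).

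Markers of cell types and of other tissues also differed between the conditions in lung. All 6 lung markers and all 6 endothelial markers were lower after IH by adjusted p with scaled TPM, and 4 and 5 of them with TPM as deposited. The summed lung markers ranged from 136272 to 264341 TPM in normoxia (median 170903) and from 34723 to 205406 TPM after IH (median 147679). The summed endothelial markers ranged from 851 to 2002 TPM (median 1488) and from 766 to 1633 TPM (median 1216). Of 6 fibroblast markers 1 was higher and 3 lower, of the leukocyte markers 3 were lower (1 higher and 1 lower with TPM as deposited), and of 10 proliferation genes 4 were lower with scaled TPM and 4 higher with TPM as deposited. Of 6 heart markers 3 were higher and 0 lower with scaled TPM, and 5 were higher with TPM as deposited. Their sums had medians of 366 TPM in normoxic lung and 648 TPM in IH lung. Of 5 muscle markers tested, 1 was higher with scaled TPM and 3 with TPM as deposited. No lung or endothelial marker was at 0. The part of a changed mix of cells in the lung values of Cdkn1c and the other members was not tested.

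Outside lung, Cdkn1c rose in kidney. It had 34.0 TPM at the median and 47.3 at the highest in normoxia, and 33.1 TPM at the lowest, 45.7 at the median and 83.4 at the highest after IH, with overlap, and the mean after IH was higher at 8 of 8 time points. The log2 difference was 0.55 (adjusted p = 4.2e-06 by limma), short of the 1.5-fold threshold on the log2 scale. The same gene thus passed in opposite directions in lung and kidney. In liver Cdkn1c was 0.41 higher (adjusted p = 0.0499 by limma). One IH liver library, at 13:30, replicate 2, had 17.2 TPM against a median of 2.93 TPM after IH, and without this library, the 1 of low correlation in liver, the difference was 0.27 (adjusted p = 0.014). With TPM as deposited the liver difference did not pass (0.29, adjusted p = 0.091). In liver 4 of 4 tested kidney markers, 5 of 5 tested heart markers and 3 of 6 endothelial markers were higher after IH by adjusted p. Of 6 liver markers 2 were lower. The kidney markers had median sums of 3.85 TPM in normoxia and 90.4 TPM after IH. An IH liver library had heart markers summing to 5512 TPM, above its liver markers. Their part in the liver values of Cdkn1c, and of Ccnd2 below, was not tested. Cdkn1b was 0.11 higher in kidney (adjusted p = 0.038 by limma), and 0.07 with TPM as deposited (adjusted p = 0.54). In kidney 4 of 6 adipocyte markers were also higher after IH by adjusted p with scaled TPM, and 0 with TPM as deposited. Their sums ran from 352 to 1143 TPM in normoxia (median 747) and from 487 to 1663 TPM after IH (median 859). The part of these markers in the kidney values was not tested.

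In cerebellum Cdkn1b fell and Ccnd3 rose. Cdkn1b had 51.2, 107.6 and 173.3 TPM (lowest, median and highest) in normoxia and 18.4, 81.8 and 112.0 TPM after IH, with a lower mean at 8 of 8 time points and a log2 difference of -0.52 (adjusted p = 0.00028 by limma). The lowest value came from the IH library at 1:30, replicate 3, one of the 4 of low correlation in cerebellum, and without those 4 the difference was -0.46. Ccnd3 had a median of 19.0 TPM in normoxia and 27.4 TPM after IH, with a higher mean at 7 of 8 time points and a log2 difference of 0.45 (adjusted p = 0.00014 by limma). Ccnd2 was higher in liver by 0.38 (adjusted p = 0.0090 by limma). In liver it was 0.29 without the library of low correlation (adjusted p = 0.0024) and 0.26 with TPM as deposited (adjusted p = 0.080). It was also higher in muscle by 0.30 (adjusted p = 0.019), and in muscle the difference without the libraries high in proliferation genes was 0.26 (adjusted p = 0.091 by limma). Cdkn1a was higher in heart by 0.41 (adjusted p = 0.030 by limma), with a median of 11.4 TPM in normoxia and 17.8 TPM after IH and a higher mean at 7 of 8 time points. Without the heart libraries of low correlation or those high in proliferation genes its adjusted p was 0.056 or 0.063 by limma. In heart 5 of 6 endothelial and 5 of 6 fibroblast markers were higher after IH by adjusted p, with medians of the sums of 225 and 324 TPM for endothelium and 549 and 750 TPM for fibroblasts in normoxia and IH, and their part was not tested.

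Of the 14 calls by adjusted p, 5 held whichever replicate number was left out: Cdkn1b, Cdkn1c, Ccnd1 and Ccnd3 in lung and Cdkn1c in kidney. The other 9 missed the threshold without at least 1 replicate number. With TPM as deposited 8 of the 14 still passed, and other pairs passed in place of the rest, so the count was again 14. The pairs that passed only with TPM as deposited were Cdc25a and Ccnd2 in lung, Cdkn1b in muscle, and Cdkn1c and Ccnd2 in heart, all higher after IH, and Ccnd3 in liver. Ccnd3 in liver was lower there, at -0.21 (adjusted p = 0.022 by limma). Wee1 did not pass in any tissue on either scale in the fit of treatment alone. With time point as a further factor it was higher in heart, by 0.24 on the log2 scale (adjusted p = 0.0018 by limma), with a higher mean after IH at 7 of 8 time points, and this was the call that the factor added.

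The change in lung was compared directly with that in each other tissue by an interaction term in limma. Libraries were treated as independent, although the tissues may share mice. With scaled TPM the change after IH differed by adjusted p in 26 of 44 gene and tissue pairs, each with a lower value in lung. By tissue this was 5 of 8 against liver (52.6% of all genes differed), 6 of 9 against kidney (63.2%), 5 of 9 against muscle (56.8%), 5 of 9 against heart (65.2%) and 5 of 9 against cerebellum (49.8%), so the share of members that differed was close to that of all genes. Cdkn1c differed from all 5 tissues, from -0.52 against cerebellum to -1.32 against kidney on the log2 scale. Wee1 and Cdc25b differed from none. With TPM as deposited 13 of the 44 differed, of which 4 were Cdkn1c and 3 were Cdc25b, and the direction was mixed. Cdc25b was higher in lung (0.53 against kidney, 0.50 against heart and 0.52 against cerebellum). Also higher in lung were Cdc25a against liver (0.44) and kidney (0.27) and Cdkn1b against cerebellum (0.45), and the rest were lower.

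The members can be set beside lists of related genes. Of 25 other cell cycle regulators, 9 were higher and 10 lower in lung after IH by adjusted p with scaled TPM, and 15 were higher and 1 lower with TPM as deposited, so the direction of this list depended on the scale. In the other tissues 1 higher and 2 lower of 15 passed in liver, 1 and 3 of 17 in kidney, 0 and 1 of 20 in muscle, 1 and 0 of 23 in heart and 2 and 2 of 23 in cerebellum. The regulators past both thresholds in lung were Cdc25c, the third CDC25 phosphatase, at 1.18 ± 0.58 TPM in normoxia and 3.84 ± 2.84 TPM after IH (SD, n = 24), Pkmyt1, a membrane-bound relative of Wee1, at 3.57 ± 0.46 and 7.18 ± 2.38 TPM, and Cdkn2b, the p15 inhibitor of CDK4 and CDK6, at 35.6 ± 7.54 and 28.2 ± 8.34 TPM. Their log2 differences were 0.98, 0.59 and -0.65, and each kept its direction with TPM as deposited. Of these 25 regulators, 2 were rhythmic in normoxic lung, 4 in liver, 1 in kidney, 0 in muscle and heart and 2 in cerebellum, and after IH 7 were in muscle and 2 or fewer in each other tissue.

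Targets of p53, the activator for which Cdkn1a is best known, moved in both directions in lung, with 4 higher and 5 lower of 12 on scaled TPM and 6 higher and 1 lower with TPM as deposited. In the other tissues between 1 and 3 were higher and 0 or 1 lower. Of the 13 clock reference genes, 5 were higher and 0 lower in lung by limma. None was called in another tissue with scaled TPM, and 1, in heart, was higher with TPM as deposited. This fit had treatment as its only factor, so the daily swing of these genes stayed in its error and smaller changes could be missed. Past both thresholds in lung were Ciart (log2 difference 1.07), Per3 (0.88), Per2 (0.74) and Tef (0.62), all with higher values again with TPM as deposited. Wee1 itself had a log2 difference of -0.14 in lung (adjusted p = 0.51 by limma).

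For each member the genes of most similar pattern were sought in the tissue of its largest relative amplitude in normoxia, by Pearson's r over the 48 libraries, given as a description since these libraries share time points and conditions. For Wee1 in liver they were Usp2 (0.91), Nampt (0.90) and Efhd2 (0.86). For Cdkn1a in liver they were Blcap, Lgalsl and Ncoa5 (all 0.81). For Cdkn1c in lung they were Aldh2 (0.95), Prdx6 (0.95) and Lurap1l (0.93). Ccnd1 in liver was closest to Tnfsf12 (0.80), Ccnd2 in cerebellum to Bcl2l12 (0.87) and Ccnd3 in cerebellum to Tnfrsf12a (0.91). Cdc25a and Cdc25b were closest in cerebellum to Sowaha (0.87) and Pan2 (0.87), and Cdkn1b in kidney had its highest correlation with Cwf19l2 (0.71), the lowest leading value of the 9.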

How the data were processed

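RNA of 24 libraries per tissue and condition was sequenced and, per the labels and the study's methods, quantified by the authors with kallisto against mouse mm10 transcripts (FastQC 0.11.3 for read quality). The deposited TPM values, in 12 tables by gene, were used as they stood, and the tables hold no read counts or depth per library. Samples were grouped by the tissue, treatment and time in their labels. For level tests TPM were scaled within a tissue by the median of ratios, genes averaging at least 1 TPM were kept, and log2(scaled TPM + 0.5) was compared in limma 3.58.1 (R 4.3.3) with Benjamini-Hochberg adjustment over all genes. A call needed an adjusted p of 0.05 and, for the stricter count, 1.5-fold, and fold changes are on this log2 scale, which understates low genes. Rhythms were tested on TPM of genes reaching 1 TPM, by an exact JTK test and Lomb-Scargle at 24 h, combined by Fisher's method, with Python 3.11.15 and scipy 1.17.1. CircaCompare was rewritten for the comparison of amplitude and peak. In simulated data the rhythm rule recovered 91.3 to 96.8% of 400 rhythmic genes, and 23.3 to 29.7% of its calls were false. The simulation held 14482 to 21372 genes per tissue, and each rhythmic gene had an amplitude of 1.5 times its SD. Both shares depend on these settings and do not carry over to shallower rhythms or to the members. Alternatives were the pseudocount (0.1 or 1), the filter, the scaling, replicates left out or blocked, and libraries of low correlation or high in proliferation genes left out, which was chosen after the data were seen. Named genes were the 9 members, the list genes past both thresholds and the 3 genes most like each member. The members and lists were chosen with earlier results of these data known. Positions are from GENCODE gene models of GRCm38 and promoters from RefSeq.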

Additional observations from a re-analysis of the deposited data

Results flagged for a closer look

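The change after IH differed between lung and another tissue, by the limma interaction term with an adjusted p of at most 0.05, in 26 gene and tissue pairs. In the same tests 49.8 to 65.2% of all genes differed, so the share of members was close to that of all genes. With TPM as deposited 13 pairs differed, and Cdkn1b and Ccnd3 against liver, Ccnd2 against kidney and Cdc25a against cerebellum changed sign. All values are the log2 change in lung minus that in the other tissue with scaled TPM. Against liver they were -0.41 for Cdkn1b, -1.18 for Cdkn1c, -0.56 for Ccnd1, -0.51 for Ccnd2 and -0.28 for Ccnd3. Against kidney they were -0.67 for Cdkn1a, -0.49 for Cdkn1b, -1.32 for Cdkn1c, -0.42 for Ccnd1, -0.28 for Ccnd2 and -0.44 for Ccnd3. Against muscle they were -0.69 for Cdkn1a, -0.48 for Cdkn1b, -0.65 for Cdkn1c, -0.43 for Ccnd2 and -0.27 for Ccnd3. Against heart they were -0.88 for Cdkn1a, -0.38 for Cdkn1b, -0.88 for Cdkn1c, -0.48 for Ccnd1 and -0.25 for Ccnd2. Against cerebellum they were -0.18 for Cdc25a, -0.59 for Cdkn1a, -0.52 for Cdkn1c, -0.57 for Ccnd1 and -0.81 for Ccnd3. These comparisons share the lung libraries. In kidney and liver the difference for Cdkn1c came from changes of opposite sign, lower in lung and higher in the other tissue. Dixon's test for a single outlying value was not applied, as groups held 24 libraries and time points 3.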

How the results depend on the processing

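The count of members past both thresholds after IH, 1 as reported, was 0 with TPM as deposited, 5 with replicate 1 alone, 5 with replicate 2 alone and 1 to 5 with 1 replicate number left out. By adjusted p alone it was 14, and 8 with replicate 2 alone, 5 with replicate 3 alone and 5 to 14 with 1 left out. The 15 rhythmic pairs in normoxia became 24 with scaled TPM and 9 to 13 with 1 replicate number left out, and the 15 after IH 10 to 12. The count of amplitude differences was 0, and 1 with scaled TPM. The 26 lung differences became 13 with TPM as deposited and 17 to 30 with 1 replicate number left out, and the 31 neighbouring tissues that differed 26 to 33. The cause of these moves was not tested, beyond the smaller number of samples.

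Among values that passed the test as reported or under the alternative, 25 changed sign, and signs of values that passed in neither are not listed. With TPM as deposited the lung change was 0.25 for Cdc25a and 0.17 for Ccnd2, and lung minus another tissue was 0.014 for Cdkn1b and 0.15 for Ccnd3 (liver), 0.27 for Cdc25a and 0.061 for Ccnd2 (kidney) and 0.10 for Cdc25a (cerebellum). With replicate 3 alone Cdkn1a in lung was 0.033 and Ccnd2 in liver -0.029. With TPM scaled over all libraries, neighbouring tissues in log2 gave for Wee1 lung minus kidney -0.48, cerebellum minus heart -0.23 and liver minus muscle 0.28, for Cdc25a cerebellum minus lung 0.27 and lung minus kidney -0.29, and for Cdc25b cerebellum minus heart -0.70. For Cdkn1a they were cerebellum minus muscle -0.14, muscle minus heart -0.22 and kidney minus liver -0.0053, for Cdkn1b muscle minus heart -0.0042 and for Cdkn1c lung minus muscle -0.37. For Ccnd1 they were lung minus kidney -0.035 and cerebellum minus muscle -0.42, and for Ccnd2 muscle minus heart -0.17 and kidney minus liver -0.31. In IH libraries Ccnd3 in liver minus cerebellum was -0.52.

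Replicate numbers were not treated as pairs, since in no tissue did every same-numbered pair correlate above 0.1: of 24 same-numbered pairs, 5 in lung, 16 in liver, 6 in kidney, 12 in muscle, 8 in heart and 7 in cerebellum did so. In liver 14 and in muscle 12 of the 24 normoxia libraries correlated best with their own number, a hint from the data and not the design, against 5 to 9 in the other tissues. With the replicate block 1 member passed both thresholds and 15 the adjusted p, 26 lung differences and 32 neighbouring tissues differed, amplitude and peak time differed for 0, and the limma cosine fit called 20 in normoxia and 18 after IH, against 19 and 16 without the block. TPM tables hold no read counts, so no counting error is given.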
